A study of Mus musculus with 12 samples.

Results

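The genes of dystrophin (Dmd), its paralog utrophin (Utrn), dystroglycan (Dag1), 4 sarcoglycans (Sgca, Sgcb, Sgcd and Sgce) and sarcospan (Sspn) were followed in the tibialis anterior, a hindlimb muscle, of wild-type and dystrophic mice. They were taken by gene symbol from a table of counts per gene, and all 8 were found among its 24421 entries. Messenger RNA was sequenced in 6 C57Bl/6 mice (WT) and in 6 mdx/mTR mice, and every animal was a male of 4 months. The mdx mutation disrupts Dmd, and mTR stands for the telomerase RNA gene Terc. The WT mice carry neither, so effects of the 2 lesions cannot be told apart. The labels do not say which mdx allele was used or how many generations had lacked telomerase.

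Dystrophin is a long rod-shaped protein under the muscle membrane. It binds actin at one end and, near the other, beta-dystroglycan in the membrane. Alpha-dystroglycan, cut from the same Dag1 product, binds laminin outside the cell, and the sarcoglycans and sarcospan form a membrane subcomplex that steadies this link. In fibres without dystrophin the complex is lost from the membrane as protein, and utrophin, which otherwise concentrates at the neuromuscular junction, can take part of its place. Gene counts measure mRNA, not protein or its position in the fibre.

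Of the 8 genes, Dmd and Sgcd fell in mdx/mTR and 6 did not pass the test (edgeR quasi-likelihood test, Benjamini-Hochberg adjusted p under 0.05 over 13937 genes). Dmd fell to 19.7% of WT and Sgcd, delta-sarcoglycan, to 81.5%. Across all genes tested, 48.3% were called in either direction, 25.0% higher and 23.4% lower, so 2 of 8 is not a high count for this comparison. The median absolute log2 fold change was 0.09 for the 8 genes and 0.23 for all genes tested. Only Dmd had groups that did not overlap, against 25.2% of all genes (12.6% lower and 12.6% higher in mdx/mTR). Levels are given as CPM, each library's counts as a proportion of its total, scaled by the trimmed mean of M-values (TMM), with the SD over 6 mice.

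Library totals ran from 35136327 to 60330410 counts. TMM factors were 0.929 to 0.971 in WT and 0.988 to 1.16 in mdx/mTR, without overlap, so the choice of scaling touches every small difference below. Nothing in the labels says how the mice were housed or whether any are littermates, and the p-values measure the spread between these mice. Terc, the other targeted gene, had 2 counts in all 12 libraries together, so its loss could not be checked in these counts. All 10 adult fibre markers listed, such as Ckm and Acta1, were abundant, with summed levels of 191651 to 224317 CPM in WT and 152436 to 211337 CPM in mdx/mTR. Other cell types also moved: 8 of 8 macrophage markers rose (summed 88.5 to 152 CPM in WT and 262 to 698 CPM in mdx/mTR), as did 7 of 7 fibroblast markers (1128 to 2162 and 2840 to 5779 CPM), while 5 of 7 endothelial markers fell (572 to 731 and 441 to 547 CPM). In whole muscle, fewer cells of a type and less RNA per cell cannot be told apart, and the part of these shifts in the values below was not tested.

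Dmd lies on chromosome X (chrX:82948870-85206141, plus strand, GRCm38), and its longest coding transcript has 79 exons and 14910 bases. The gene count sums transcripts of several starts. The 3 coding transcripts of GENCODE M21 begin at 2 positions, one for the long muscle transcript and one far downstream for short products such as Dp71, which many non-muscle cells make. The 250 bases before each start in RefSeq (GRCm38.p6) are shown to make clear what the single count covers. Capitals mark every match to an E-box (CANNTG, the core site of MyoD-type factors), a CArG box (the site of serum response factor) or a GC box (GGGCGG), searched on both strands, and no base fell in 2 of these motifs.

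Dmd, start of the long transcript, chrX:82948620-82948869: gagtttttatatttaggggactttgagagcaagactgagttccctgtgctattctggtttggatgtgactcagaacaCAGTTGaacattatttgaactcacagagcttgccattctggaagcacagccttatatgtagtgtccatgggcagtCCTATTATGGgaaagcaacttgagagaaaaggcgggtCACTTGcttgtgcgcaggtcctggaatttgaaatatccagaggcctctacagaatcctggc

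Dmd, start of the short transcripts, chrX:85048045-85048294: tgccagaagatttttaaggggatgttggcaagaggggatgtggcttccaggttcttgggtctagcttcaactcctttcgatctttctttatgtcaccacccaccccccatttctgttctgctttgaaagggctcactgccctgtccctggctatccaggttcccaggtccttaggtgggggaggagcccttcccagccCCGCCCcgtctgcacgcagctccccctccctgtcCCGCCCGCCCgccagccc

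The first stretch holds a CArG box that begins 98 bases before the start, 2 E-boxes and 0 GC boxes. The second holds 3 GC boxes, which overlap in part, and neither of the other motifs. Among all 32851 such stretches, 66.2% hold an E-box, 1.47% a CArG box and 32.7% a GC box. These are letter matches, and no binding was measured. The counts cannot say which start the remaining Dmd reads came from.

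In WT, Dmd stood at 228 CPM in the lowest mouse, 239.65 CPM at the median and 244 CPM in the highest. In mdx/mTR the lowest mouse had 35.2 CPM, the median was 48.2 CPM and the highest had 56.4 CPM. Every mdx/mTR mouse lay far below every WT mouse. The means were 237 ± 6.90 and 46.8 ± 7.20 CPM (SD, n = 6 each), and the log2 fold change was -2.34 ± 0.09 (SE, edgeR adjusted p 8.3e-10). A fall at least this large was called for 31 genes, 0.222% of those tested. Relative spread was 2.91% (CV) in WT and 15.4% in mdx/mTR. Dmd was counted in every mdx/mTR mouse, with 1652 to 3675 counts per library.

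**Figure D1:**
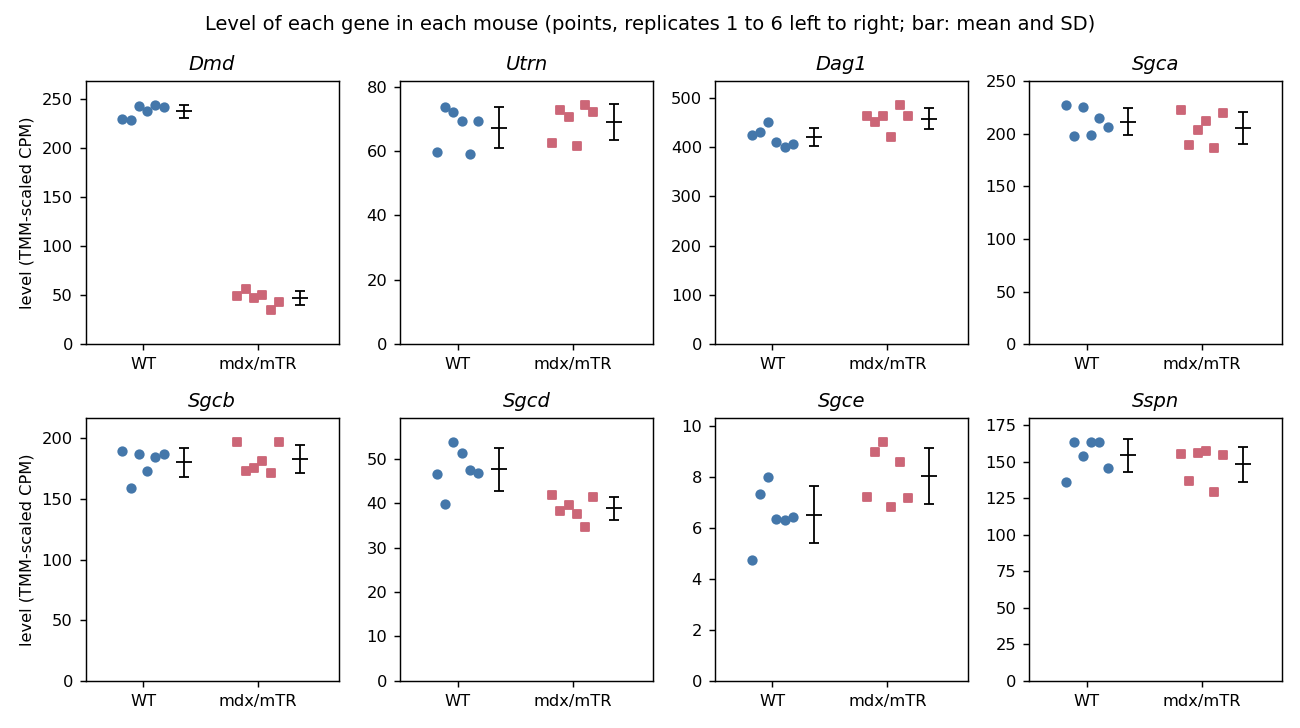
Level of each of the 8 genes in each mouse, as TMM-scaled CPM on axes from 0; points are mice, and the bar gives mean and SD of 6. Dmd separates completely (228 to 244 CPM in WT, 35.2 to 56.4 CPM in mdx/mTR), and the points of the groups overlap for the other 7 genes.

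Utrophin mRNA did not differ detectably. Utrn (chr10:12382188-12869365, minus strand) had a lowest, median and highest level of 59.2, 69.5 and 73.8 CPM in WT, and of 61.6, 71.5 and 74.3 CPM in mdx/mTR. The groups covered nearly the same range, and 1 mdx/mTR mouse lay above all WT mice. The log2 fold change was 0.04 ± 0.07 (SE, edgeR adjusted p 0.684). A band of 1.96 SE either side runs from 93.4% to 113% of WT under this scaling. With library totals alone the log2 fold change was 0.20 (edgeR adjusted p 0.0769), where the median of all genes was 0.17.

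Utrn counts were below Dmd counts in every WT library and above them in every mdx/mTR library. This mostly restates the fall of Dmd (log2 fold change -2.34), since Utrn (0.04) did not pass the test. The ratio of Utrn to Dmd counts within a library was 0.284 ± 0.0287 in WT against 1.52 ± 0.339 in mdx/mTR (SD, n = 6 each). It lay between 0.243 and 0.324 in every WT mouse and between 1.23 and 2.11 in every mdx/mTR mouse, without overlap. A ratio within a library does not depend on scaling. The difference was 2.40 on the log2 scale (two-sided exact permutation test, p 0.00216, the smallest that 6 against 6 allows; adjusted p 0.00758 over 7 ratios). The highest ratio, 2.11, belonged to mdx/mTR replicate 5, which had the lowest Dmd and the highest Utrn of its group.

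Dag1 encodes the precursor of both dystroglycans (chr9:108204634-108263958, minus strand). It stood at 399 CPM (lowest), 418 CPM (median) and 451 CPM (highest) in WT and at 420 CPM, 463 CPM and 485 CPM in mdx/mTR. In mdx/mTR, 4 of 6 mice lay above all WT mice, but the groups overlapped. The log2 fold change was 0.12 ± 0.05 (SE), and edgeR's adjusted p was 0.0542, just short of the threshold. The call turned on the processing: adjusted p was 0.0195 in DESeq2, 0.0126 with upper quartile scaling in edgeR and 0.623 in edgeR after GC content and transcript length were corrected for, within a range of 0.00134 to 0.659 over all alternatives. Without WT replicate 3 edgeR's adjusted p was 0.0386, and without mdx/mTR replicate 4 it was 0.0279. The ratio of Dag1 to Sgca was 1.99 ± 0.122 in WT against 2.24 ± 0.226 in mdx/mTR, and that of Utrn to Dag1 was 0.160 ± 0.0132 and 0.151 ± 0.00928. Neither passed after adjustment (exact permutation, adjusted p 0.0808 and 0.240 over 7 ratios).

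The sarcoglycans were examined next. In skeletal muscle sarcoglycan subunits, alpha, beta and delta among them, form one complex, and loss of any of these subunits causes a limb-girdle dystrophy. Sgca (chr11:94962791-94976327, minus strand), the muscle-restricted alpha subunit, had 198, 211 and 227 CPM (lowest, median, highest) in WT and 187, 208 and 223 CPM in mdx/mTR. Its groups overlapped, and its log2 fold change was -0.04 ± 0.06 (SE, edgeR adjusted p 0.597). Sgcb (chr5:73632749-73647790, minus strand), the beta subunit, had 159, 185 and 189 CPM in WT and 171, 179 and 197 CPM in mdx/mTR, again overlapping, with a log2 fold change of 0.02 ± 0.06 (SE, edgeR adjusted p 0.779). The alpha and beta subunits thus gave values within the spread of the mice.

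Sgcd spans 1093 kb (chr11:46896253-47988969, minus strand), although its longest coding transcript has 7 exons and 2450 bases. In WT its lowest, median and highest levels were 39.9, 47.1 and 53.8 CPM. In mdx/mTR they were 34.6, 38.8 and 41.8 CPM. The single WT mouse inside the mdx/mTR range was replicate 2, at 39.9 CPM, and 4 of 6 mdx/mTR mice lay below it. The means were 47.6 ± 4.78 and 38.8 ± 2.67 CPM, and the log2 fold change was -0.29 ± 0.07 (SE, edgeR adjusted p 0.00312). Falls of this size or more were called for 13.5% of all genes tested. With library totals alone the log2 fold change was -0.14 (edgeR adjusted p 0.0509), where the median of all genes moved up to 0.17 from 0.01.

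The 250 bases before the RefSeq starts of Sgcd and Sgca are shown as the pair of subunits whose balance changed.

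Sgcd, chr11:47379326-47379575, minus strand: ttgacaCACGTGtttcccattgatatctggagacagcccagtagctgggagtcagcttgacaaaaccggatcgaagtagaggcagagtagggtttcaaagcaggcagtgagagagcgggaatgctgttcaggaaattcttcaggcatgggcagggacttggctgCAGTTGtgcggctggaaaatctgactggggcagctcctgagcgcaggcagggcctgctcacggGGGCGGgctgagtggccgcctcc

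Sgca, chr11:94976328-94976577, minus strand: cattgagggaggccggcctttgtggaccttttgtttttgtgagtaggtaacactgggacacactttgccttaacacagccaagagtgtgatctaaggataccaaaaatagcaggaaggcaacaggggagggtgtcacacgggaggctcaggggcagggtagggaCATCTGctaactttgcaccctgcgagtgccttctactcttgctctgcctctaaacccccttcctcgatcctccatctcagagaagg

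Sgcd has 2 E-boxes and 1 GC box here, and Sgca has 1 E-box. The RefSeq start of Sgca is also a GENCODE start, and that of Sgcd lies 197 bases from the nearest one. Coding transcripts in GENCODE begin at 2 positions for Sgcd and 4 for Sgca. The counts sum all of them, and the bases before the other starts are not shown. RefSeq stretches were found for 7 of the 8 genes, all but Sgce.

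Within libraries, Sgcd counts were 0.225 ± 0.0216 of Sgca counts in WT against 0.189 ± 0.00826 in mdx/mTR (SD, n = 6 each). Every mdx/mTR mouse (0.177 to 0.201) lay below every WT mouse (0.202 to 0.259), by a very small margin between mdx/mTR replicate 2 and WT replicate 2. The log2 difference was -0.25 (exact permutation p 0.00216, adjusted p 0.00758 over 7 ratios). With Sgcb in place of Sgca under the line, an alternative added after the data were seen, it was -0.31 without overlap (exact permutation, adjusted p 0.00866 over 4 ratios). Relative to its partner subunits, Sgcd fell with no scaling involved.

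The ratio of Sgcb to Sgca counts, 0.851 ± 0.0360 in WT against 0.888 ± 0.0252 in mdx/mTR, did not pass (exact permutation p 0.0693, adjusted p 0.0970). Of the 7 ratios tested, 2 passed, and the same 2 had groups that did not overlap. Leaving out 1 mouse added calls: Dag1 to Sgca passed without WT replicate 2 (log2 difference 0.19) or mdx/mTR replicate 4 (0.20), and Sgcb to Sgca passed without WT replicate 6 (0.0807), each with an exact permutation adjusted p of 0.0404.

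**Figure D2:**
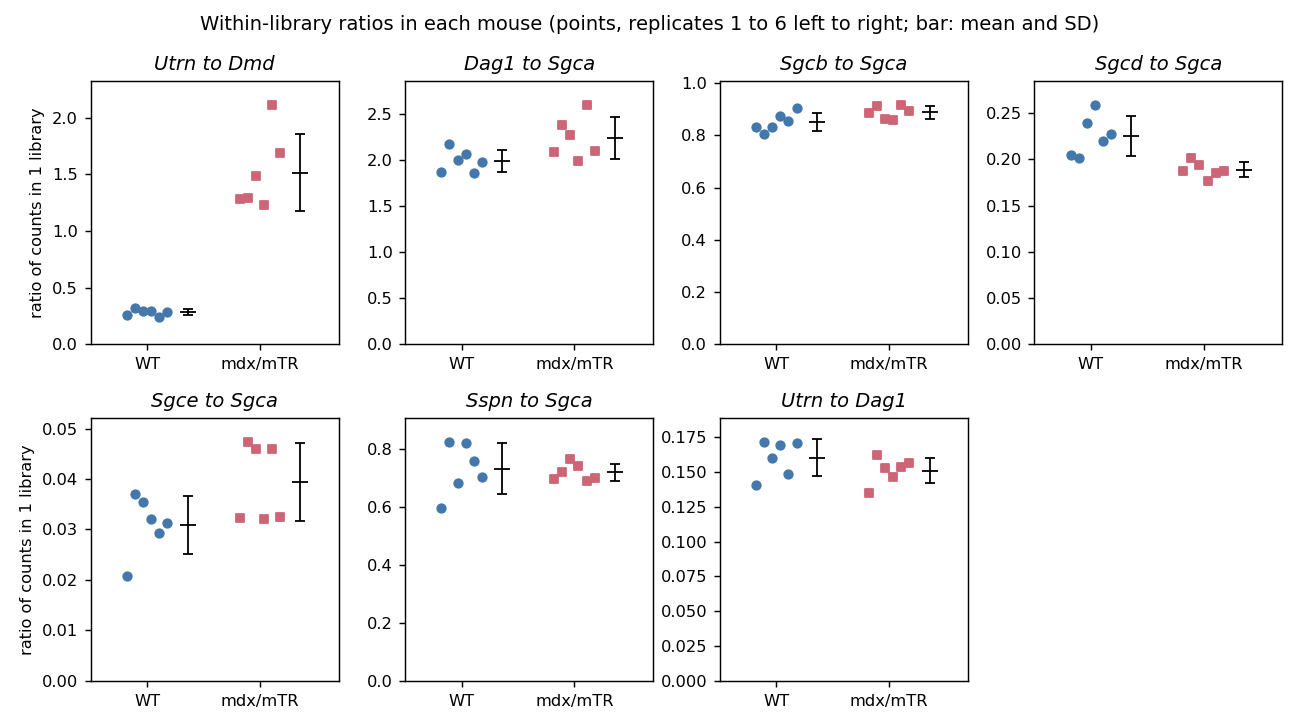
Ratio of the counts of 2 genes within each library, on axes from 0; points are mice, and the bar gives mean and SD of 6. The groups do not overlap for Utrn to Dmd and Sgcd to Sgca, and overlap for the other 5 ratios.

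Sgce (chr6:4674350-4747207, minus strand) encodes epsilon-sarcoglycan, a relative of alpha-sarcoglycan made in many tissues and expressed from the paternal allele. It was the least abundant of the 8, at 4.72, 6.38 and 7.99 CPM (lowest, median, highest) in WT and 6.81, 7.89 and 9.38 CPM in mdx/mTR. In mdx/mTR 3 of 6 mice lay above all WT mice. The means were 6.52 ± 1.11 and 8.02 ± 1.09 CPM, and the log2 fold change of 0.30 ± 0.12 (SE) gave an edgeR adjusted p of 0.0561. Adjusted p was 0.0441 in DESeq2 and 0.0171 in edgeR with a replicate block, and it was 0.189 with the GC and length correction, within a range of 0.0133 to 0.189 over all alternatives. The lowest mouse was WT replicate 1 at 4.72 CPM, and without it the log2 fold change was 0.22 (edgeR adjusted p 0.111). This mouse had the lowest fibroblast (1128 CPM), macrophage (88.5 CPM) and endothelial (572 CPM) marker sums of its group and the highest fibre marker sum (224317 CPM). The WT mouse highest in Sgce, replicate 3 at 7.99 CPM, had a fibroblast marker sum of 1561 CPM, below the WT highest of 2162 CPM. Sgce passed when any of 4 single mice was left out, namely WT replicate 2 (edgeR adjusted p 0.0475), WT replicate 3 (0.0271), mdx/mTR replicate 4 (0.0390) or mdx/mTR replicate 6 (0.0471). The ratio of Sgce to Sgca was 0.0310 ± 0.00574 in WT against 0.0394 ± 0.00775 in mdx/mTR, with overlap (exact permutation p 0.0693, adjusted p 0.0970). Fibroblast and macrophage markers rose between the same groups, and their part in the Sgce value was not tested.

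Sspn (chr6:145931641-145965223, plus strand) encodes sarcospan, a membrane protein with 4 membrane spans that binds the sarcoglycans. It had 136, 159 and 164 CPM (lowest, median, highest) in WT and 129, 155 and 157 CPM in mdx/mTR, and the groups overlapped. The log2 fold change was -0.06 ± 0.06 (SE, edgeR adjusted p 0.480). Its ratio to Sgca was 0.733 ± 0.0884 in WT against 0.720 ± 0.0295 in mdx/mTR (exact permutation p 0.840, adjusted p 0.840). Sspn shares 69 exon bases, 1.38% of its exons, with an antisense gene that the table does not list, and the other 7 genes share none with another gene.

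Per length of the longest coding transcript, Sgca was highest in WT at 123 ± 7.56 CPM per kilobase, followed by Dag1 at 74.2 ± 3.39, Sgcb at 47.5 ± 3.10 and Sspn at 34.2 ± 2.56. Sgcd (19.4 ± 1.95) and Dmd (15.9 ± 0.462 CPM per kilobase) came next and overlapped. Utrn followed at 5.44 ± 0.510 and Sgce at 3.67 ± 0.623 CPM per kilobase. Apart from Sgcd and Dmd, neighbours in this WT order did not overlap in any mouse. In mdx/mTR the order was the same but for Dmd, which at 3.14 ± 0.483 CPM per kilobase dropped below Utrn (5.58 ± 0.445) and Sgce (4.51 ± 0.616) to the last place by this length, while Utrn and Sgce overlapped each other. With the median length of coding transcripts, 4438 bases for Dmd, Dmd stood in the third place in WT, at 53.5 CPM per kilobase. By that length mdx/mTR Dmd, at 10.5 CPM per kilobase, stood in the seventh place, above Sgce (4.84) in every library. Utrn stood at 23.9 CPM per kilobase in WT, overlapping Sgcd (23.4), and at 24.5 in mdx/mTR, above Sgcd (19.1) in every library. The places of Dmd and Utrn therefore depend on the length used.

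**Figure D3:**
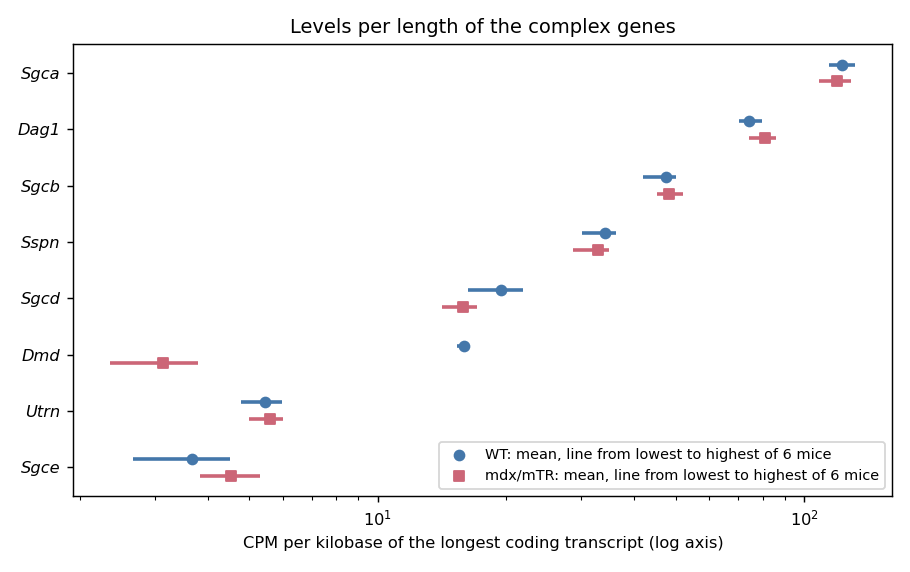
Mean level per kilobase of the longest coding transcript on a log axis, with lines from the lowest to the highest of 6 mice, for the 8 genes. Dmd moves from 15.9 to 3.14 CPM per kilobase, below Utrn and Sgce, and the other genes keep nearly the same place.

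The lowest and highest levels of several genes fell in the same mice. In mdx/mTR replicate 5, 5 of the 8 genes (Dmd, Sgca, Sgcb, Sgcd and Sspn) had their lowest level of the group, and Utrn and Dag1 had their highest. The same library had the lowest adult fibre marker sum (152436 CPM) and the highest macrophage (698 CPM) and fibroblast (5779 CPM) marker sums of its group. Among WT mice, replicate 2 was lowest for Dmd, Sgca, Sgcb and Sgcd and highest for Utrn, with the lowest fibre marker sum (191651 CPM) and the highest fibroblast marker sum (2162 CPM). In both groups the mouse lowest in the fibre markers was also lowest in Dmd, Sgca, Sgcb and Sgcd. For Dmd the match did not hold along the order of mice. In mdx/mTR, replicate 2 had the next lowest fibre marker sum (159732 CPM) and the highest Dmd of its group (56.4 CPM). Its Sgca (189 CPM) and Sgcb (173 CPM) were also next lowest, while its Sgcd (38.2 CPM) lay above that of replicate 4 (37.5 CPM). Replicate 5 of mdx/mTR was highest in several other marker sums as well, and the part of any cell type was not tested. The Dmd log2 fold change was -2.27 without mdx/mTR replicate 5, and that of Sgcd was -0.34 without WT replicate 2 (edgeR adjusted p from 0.000528 to 0.00839 over the 12 fits that each left out 1 mouse).

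The calls of small differences depended on the scaling and the tool. DESeq2 called 4 of the 8 genes (49.9% of all genes), and limma-voom called 2 (47.5% of all genes). With library totals alone, 5 of the 8 genes passed: Dmd fell, and Dag1 (0.28), Sgca (0.11), Sgcb (0.18) and Sgce (0.46, all log2) were called higher, where 51.3% of all genes were called. Under that scaling the median of all genes was 0.17, so relative to it Sgca was not raised, and Sgcb lay close to it. With the GC and length correction 3 of the 8 passed, where 53.1% of all genes did, the median of all genes was -0.10, Sgca was called lower (-0.20, edgeR adjusted p 0.0495), Sgcd fell by 0.38 on the log2 scale, and Utrn was at -0.01. The direction of Dmd, Sgcd, Dag1 and Sgce was the same under every alternative run, that of Sgca, Sgcb, Sspn and Utrn was not. Dag1 and Sgce stayed above 0 throughout but passed the threshold only in some alternatives.

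**Figure D4:**
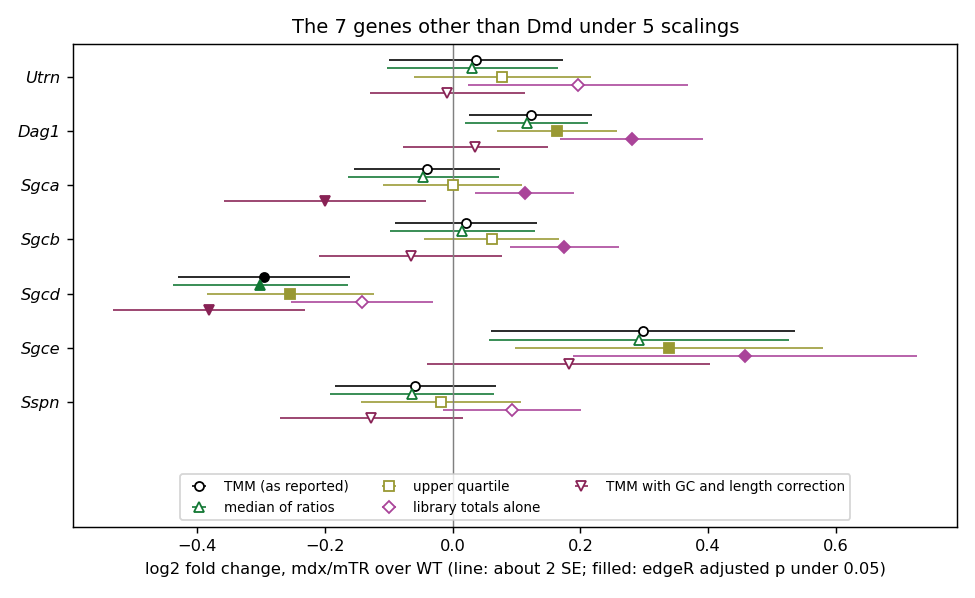
Log2 fold change of the 7 genes other than Dmd under 5 scalings in edgeR, with about 2 SE either side; filled symbols have an adjusted p under 0.05. Sgcd lies below 0 under all 5 and is open with library totals alone, and Sgca changes sign, from -0.20 with the GC and length correction to 0.11 with library totals alone.

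Partners of the complex were read from a list of 35 genes in 6 roles, of which 32 had enough counts to be tested. Of these 32, 16 rose and 6 fell, or 68.8% called against 48.3% of all genes tested, with a median log2 fold change of 0.23 against 0.01. The list was chosen with earlier results of these data known, so these shares are a description and not a test. Fibroblast markers rose between the same groups, and their part in the partner values was not tested. Among laminins and other matrix ligands of dystroglycan, 5 of 9 rose and 2 fell. Lama2, the alpha chain of the main muscle laminin, went from 73.6 ± 8.37 to 111 ± 10.03 CPM (log2 fold change 0.60 ± 0.08 SE) without overlap, and Lama5, of vascular laminins, fell by 0.32 ± 0.06 on the log2 scale. All 3 other membrane partners rose, namely Itga7 (0.53 ± 0.07), the laminin-binding integrin chain, Cav3 (0.31 ± 0.05), the muscle caveolin, and Itgb1 (0.26 ± 0.07, each log2 and SE).

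On the cytoplasmic side, 3 of 7 tested syntrophin, dystrobrevin and nNOS genes rose and 2 fell. Sntb1 (0.71 ± 0.17) and Sntb2 (0.42 ± 0.10, log2 and SE), the beta-syntrophins, rose from 5.08 and 6.52 CPM in WT. Both had groups that overlapped. The 2 that fell were Nos1 (-0.67 ± 0.18) and Sntg2 (-1.51 ± 0.42, log2 and SE). Nos1 went from 348 to 219 CPM, and Sntg2 had 2 to 27 counts per library. Of 12 cytoskeletal links, 5 rose and 2 fell, namely Plec (-0.37 ± 0.06) and Krt19 (-1.24 ± 0.32, log2 and SE). Krt8, a keratin of costameres, had 0 to 3 counts in each WT library and 17 to 50 in each mdx/mTR library, and 29.7% of the 50-base stretches of its transcript also occur in other genes. Krt19, another keratin, went the other way, with 10 to 27 counts in each WT library and 4 to 12 in each mdx/mTR library. Sync, a partner of dystrobrevin, rose (0.58 ± 0.07, log2 and SE), and 23.7% of its stretches occur in another gene. Drp2, a short relative of dystrophin, stood at 7.34 ± 0.742 and 8.46 ± 1.78 CPM, a log2 difference of 0.20 ± 0.12 (SE) with an edgeR adjusted p of 0.193. The other relative, Dytn, had 1 count in all, and Sgcz, zeta-sarcoglycan, had 0 counts.

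**Figure D5:**
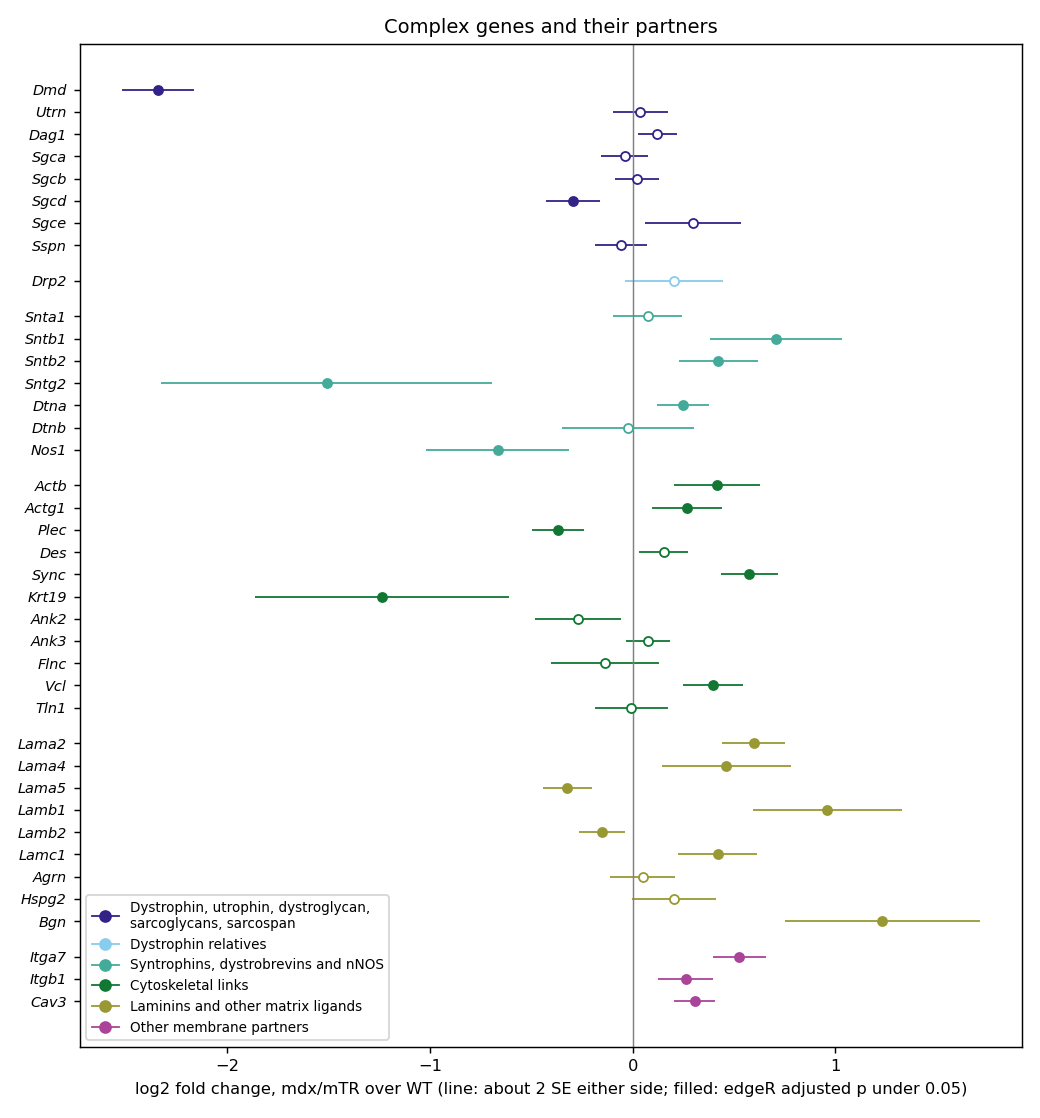
Log2 fold change of the 8 genes and 31 tested partners by role, with about 2 SE either side; filled points have an edgeR adjusted p under 0.05, and Krt8 is left out because its WT counts are at most 3. Dmd at -2.34 has the lowest value plotted, most of the core genes lie near 0, and 2 of 9 matrix ligands are filled on the lower side.

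By Pearson correlation of log2(CPM + 0.5) over the 12 libraries, Pgk1 (r = 0.994), Dach2 (0.993) and Tmem8b (0.991) were most like Dmd among 9501 genes. These values mostly restate the difference between groups, which all 3 share. Within mdx/mTR the r with Dmd was 0.567, 0.511 and 0.930, and within WT -0.256, 0.148 and 0.780. Of the Pgk1 transcript, 68.0% of stretches are also found in other genes, which leaves its level uncertain. Most like Sgcd were Hectd2 (0.966), Zfp946 (0.959) and Stip1 (0.957), with r within groups of 0.872 to 0.975, and 37.1% of the Hectd2 stretches occur in another gene. Libraries are the shared points of all these correlations, and no test was made.

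In the authors' deposited table the log2 fold changes were -2.31 for Dmd, -0.30 for Sgcd, 0.28 for Sgce and 0.11 for Dag1. By the adjusted p of the authors' deposited table, 4 of the 8 genes pass the 0.05 threshold, where 50.1% of all genes with an adjusted p do, and the additional calls are Dag1 (adjusted p 0.0270) and Sgce (adjusted p 0.0444). For Utrn the authors' deposited table gives 0.03 (adjusted p 0.786).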

How the data were processed

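Messenger RNA of 12 tibialis anterior muscles was measured, 6 per group, with groups and replicate numbers from the labels. Per the submitters' processing notes, FastQC, STAR and DESeq2 were used with build mm10; counter, annotation, strand setting and versions are not given in the sources used here. The authors deposited whole-number counts per gene symbol, with 0 per-sample columns unmatched. The authors' deposited table of their comparison gives each gene's normalized signal averaged over libraries, its log2 fold change and error, the test's score, and raw and adjusted p-values, per the file headers.

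Counts as deposited were filtered with filterByExpr (13937 genes), TMM-scaled and tested with edgeR 4.0.16 in R 4.3.3 (glmQLFit and glmQLFTest, group as the only term), with adjustment over all genes tested. The standard error is the log2 fold change divided by the square root of F. Ratios of counts within a library were tested with exact permutation in scipy 1.17.1. DESeq2 1.42.0 and limma 3.58.1 (voom), other filters, scalings, a replicate block, a GC and length correction, a threshold of 0.01 and leaving out each mouse were alternatives. Procedures were tested on simulated data. Transcript lengths, GC content (found for 99.3% of tested genes) and loci came from GENCODE M21 on GRCm38, the build named mm10 in the notes. A library's limit for a count of 0 is 3 counts, 0.0497 to 0.0854 CPM of its total, and covers counting error only.

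One partner gene and its ratio are not reported here. The members and lists were chosen with earlier results of these data known. Genes named beyond the members are the 2 smallest p-values of each role of partners, and Terc. The 3 genes most like Dmd and most like each member past the threshold (mean of at least 5 CPM) are also named. Itgb1, Krt19, Plec, Nos1, Sntg2, Dytn and Sgcz were added after their values were seen. Of 12 cell type lists, those not described in the report gave the following counts of genes rising and falling in edgeR: satellite cell and myoblast 5 and 1 of 7, smooth muscle and pericyte 1 and 4 of 7, Schwann 0 and 5 of 6, neuromuscular junction 5 and 0 of 6, adipocyte 0 and 0 of 4 tested, T cell 1 and 0 of 1 tested, neutrophil 1 and 0 of 2, tendon 3 and 0 of 3, and adult fibre 2 and 2 of 10.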

Additional observations from a re-analysis of the deposited data

Results flagged for a closer look

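Across 30 groups of values (8 genes and 7 ratios in each group of 6 mice), 0 had a gap to its neighbour above Dixon's 95% critical value for 6, where chance gives about 1.5. The check takes 1 gene or ratio at a time, so it cannot see a mouse that is extreme across several genes. In mdx/mTR, replicate 5 was lowest of its group for 5 of the 8 genes and highest for 2.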

How the results depend on the processing

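The number of genes called over the whole table was 6094 to 7402 under the alternatives at an adjusted p under 0.05, against 6736, and 4621 at an adjusted p under 0.01. Of the 8 genes, 4 passed with a mean of at least 1 CPM, with upper quartile scaling and in DESeq2, and 5 with library totals alone; leaving out 1 mouse gave 2 to 4. With a mean of at least 1 CPM the log2 fold changes that newly passed were 0.13 for Dag1 and 0.31 for Sgce, with upper quartile scaling 0.16 and 0.34, and in DESeq2 0.12 and 0.29. Library totals alone gave 0.28 for Dag1, 0.18 for Sgcb, 0.46 for Sgce, 0.20 for Utrn (which did not pass), 0.11 for Sgca, 0.0931 for Sspn and -0.14 for Sgcd. Upper quartile scaling put Sgca at 0.00029. With the GC and length correction, Utrn was at -0.0080, Sgca at -0.20 and Sgcb at -0.0655; with the replicate block as well they were at -0.0073, -0.20 and -0.0644. Transcript length and GC content differ widely among these genes, and the cause of these shifts was not tested.

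Replicate numbers are shared between the groups, but same-numbered libraries deviated together in only 2 of 6 pairs (correlations -0.138 to 0.319), and 2 mdx/mTR libraries correlated best with their own number, and the mice were treated as unpaired. The replicate block put Sgce at 0.30 (edgeR adjusted p 0.0171). By sign flips within numbers, the log2 differences of Utrn to Dmd (2.40) and Sgcd to Sgca (-0.25) had an adjusted p of 0.0729, where the smallest unadjusted p is 0.0312.

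Leaving out each mouse in turn gave -2.40 to -2.27 for Dmd, 0.0014 to 0.0677 for Utrn, 0.10 to 0.15 for Dag1, -0.0642 to -0.0171 for Sgca, -0.0137 to 0.0359 for Sgcb, -0.34 to -0.26 for Sgcd, 0.22 to 0.36 for Sgce and -0.0935 to -0.0251 for Sspn. The ratio differences ran from 2.29 to 2.45 for Utrn to Dmd, 0.12 to 0.20 for Dag1 to Sgca, 0.0464 to 0.0807 for Sgcb to Sgca, -0.28 to -0.21 for Sgcd to Sgca, 0.24 to 0.40 for Sgce to Sgca, -0.0745 to 0.0189 for Sspn to Sgca and -0.12 to -0.0517 for Utrn to Dag1. Partner genes past the threshold numbered 20 to 22 in these fits and 19 to 24 under the other alternatives. The lowest of the 8 genes, Sgce, had at least 170 counts in each library, and the effect of depth was not tested.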
